A study of Mus musculus with 15 samples.

Results

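The cytoplasmic ribosomal protein genes were followed in 14 RNA-seq libraries of sorted mouse intestinal epithelial cells. Members were taken by symbol: names of the large subunit (Rpl), the small subunit (Rps), the P stalk (Rplp0, Rplp1 and Rplp2) and Rpsa, with pseudogenes left out. Of 27179 genes in the count table, 83 matched and 2 of these, Rpl6l and Rps4l, were left out because RefSeq lists them as a pseudogene and a transcribed pseudogene. The 81 members comprised 43 genes of the large subunit, 30 of the small subunit, 3 of the P stalk and 5 paralogs, and 78 of the 81 passed the filter on low counts. The symbol rule passes over some genes, such as Rps3a1, Fau and Rack1, which also encode ribosomal components and are described separately.

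All samples, normal epithelium included, are labelled as coming from the cross Lrig1-eGFP-IRES-CreERT2 x APCmin. In these mice green fluorescence from the Lrig1 locus reports Lrig1 expression, and APCmin is a germline Apc mutation that leads to intestinal adenomas. EpCam+ cells without CD45 and CD31 were sorted by reporter level, giving Lrig1-high and Lrig1-low cells of normal colonic epithelium (4 libraries each) and of dissected colonic tumors (3 libraries each). One more library of the tumor Lrig1-low group, S15, had 357 counts in all and entered no comparison. No label ties a library to an animal, and the p-values reflect only how far libraries of a group differ, which may be technical.

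Ribosomal proteins assemble with ribosomal RNA into the 2 ribosomal subunits that translate mRNA in the cytoplasm. The P stalk is the part of the large subunit that recruits translation factors, and Rpsa is also known as a laminin receptor. Their mRNAs are abundant in dividing cells, and in the intestine the dividing cells lie in the crypts. Most of these mRNAs begin with a 5' terminal oligopyrimidine (TOP) stretch, a C followed by pyrimidines, through which mTOR signalling controls their translation as a group. Because most of the proteins are needed in equal numbers, their genes are usually expressed together, while scattered processed pseudogenes carry copies of many of their mRNAs.

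The sequences below are the promoters of 6 genes whose reads rose far above the rest in 1 library, and of Rpl28, 1 of 2 members whose libraries did not overlap in a comparison. Each runs 5′ to 3′ from 60 bases before the RefSeq start to 20 bases from it, in lower case, with matches to the searched motifs in capitals (RefSeq, build GRCm38.p6, the patched form of mm10). They are shown so that the reader can see whether the genes that stood out in the same library share letters around their starts.
Rpl35: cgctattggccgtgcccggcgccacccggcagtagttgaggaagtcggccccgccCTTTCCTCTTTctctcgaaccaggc
Rplp2: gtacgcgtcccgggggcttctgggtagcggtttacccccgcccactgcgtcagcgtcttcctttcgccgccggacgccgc
Rpl24: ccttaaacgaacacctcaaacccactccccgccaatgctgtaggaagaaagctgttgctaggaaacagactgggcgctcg
Rpl4: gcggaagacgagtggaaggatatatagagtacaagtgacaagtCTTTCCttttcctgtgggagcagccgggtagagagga
Rpl31: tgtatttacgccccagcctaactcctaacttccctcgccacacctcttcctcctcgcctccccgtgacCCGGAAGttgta
Rpl10: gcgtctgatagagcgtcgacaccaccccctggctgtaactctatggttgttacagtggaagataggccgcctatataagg
Rpl28: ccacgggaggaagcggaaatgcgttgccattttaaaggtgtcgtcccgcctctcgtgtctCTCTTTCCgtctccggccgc

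The windows lie at chr2:39005112-39005191 for Rpl35, on the minus strand, and on the plus strand at chr7:141447591-141447670 for Rplp2, chr16:55966215-55966294 for Rpl24, chr9:64173327-64173406 for Rpl4, chr1:39367791-39367870 for Rpl31, chrX:74270756-74270835 for Rpl10 and chr7:4792905-4792984 for Rpl28. The members were not a genomic cluster, with genes on 19 chromosomes. Among Rpl35, Rplp2, Rpl24 and Rpl4, all high in the library S14, the motif CTTTCC was found in the printed windows of Rpl35 and Rpl4 and not in those of Rplp2 and Rpl24. RefSeq promoter windows of 300 bases (250 before to 50 from the start) were matched for 56 of the 76 members that are not paralogs. The pyrimidine motif CTTTCC, searched on the forward strand, was in the windows of 23 of these 56 genes (41.1%) and of 16.01% of all 27025 genes in the table. The motif CTCTTT, which can overlap it, was also in 23 of 56 (41.1%, against 13.7% of all genes). CCGGAAG, a binding motif of ETS factors, was in 23 of 56 on either strand (41.1%, against 9.93%). AAGATGG, a motif of YY1, was in 9 (16.1%, against 7.28%), and TATAAA, the TATA box, in 6 (10.7%, against 15.7%). At the annotated start base the 66 windows of these genes had a C in 20 (30.3%), against 16.3% of all windows. These are matches of letters at annotated starts, and the starts used in these cells were not measured.

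The 14 libraries held 9508505 to 17296536 counts each. The 2 mitochondrial ribosomal RNA genes took 12.9% to 42.8% of them. S12, of the tumor Lrig1-high group, was at the top of that range and detected the smallest number of genes, 11995. Lrig1 itself was at 36.4 CPM (counts scaled by the library's effective size from TMM factors) in S10, labelled normal Lrig1-high, against 126 to 146 CPM in the other 3 of that label. S09, labelled normal Lrig1-low, had 85.5 CPM against 45.3 to 54.0 CPM in the other 3, a value between those of the 2 labels. In the libraries labelled tumor Lrig1-low Lrig1 was at 53.2 CPM in S03, 142 CPM in S07 and 43.0 CPM in S11, and in those labelled tumor Lrig1-high at 148 CPM in S04, 55.7 CPM in S08 and 72.5 CPM in S12. The Lrig1 RNA of S10 and S07 thus went against their labels, while S08 was the lowest of its group yet above S03 and S11. The members' medians are also given without S07, S08, S09 and S10 below. Of the colon markers examined, Hoxb13 and Hoxd13 were at 0 in all 14 libraries and Car1 was at 0.222 CPM or less, while Car4 had a median of 31.3 CPM. The small intestine genes Sis and Apoa1 had medians of 577 and 178 CPM, so the markers do not bear out the labelled tissue. The mean log2(CPM + 1) of 7 leukocyte markers ran from 1.05 to 2.41 over the libraries, that of 5 endothelial markers from 0.10 to 2.63 and that of 5 fibroblast markers from 0 to 1.05.

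Levels among the members differed widely when set per kb of annotated exon. The P stalk gene Rplp1 had the highest median over the libraries, 1893 CPM per kb, followed by its partner Rplp2 at 1097. Rpl8, a protein near the catalytic centre of the large subunit, followed at 914 and Rpl4 at 746. Among the small subunit genes Rpsa had a median of 580 and Rps23, a protein of the decoding site, 567 CPM per kb. The third stalk gene, Rplp0, which anchors its partners, had 530. Ranked by mean instead, Rpl35 (1577 CPM per kb) led the large subunit ahead of Rpl4 (1041) and Rpl8 (878), and Rps14 (1130) led the small subunit ahead of Rpsa (572) and Rps23 (565). The medians of Rpl35 and Rps14 were 284 and 423 CPM per kb, because each mean holds 1 very high library.

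**Figure D1:**
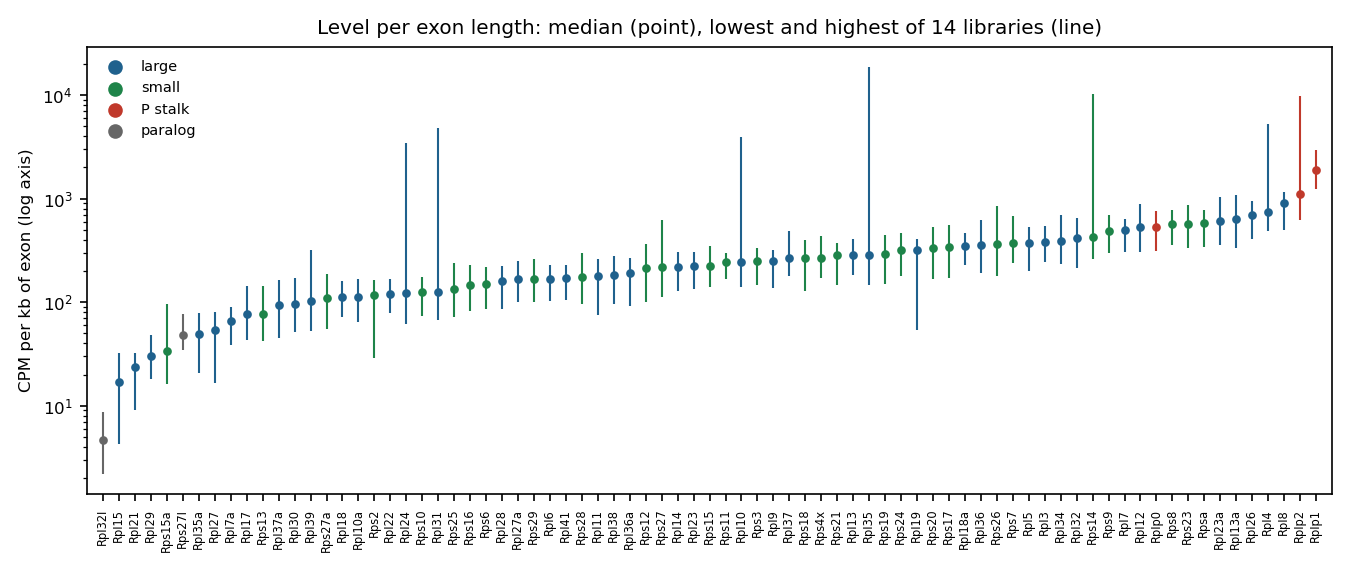
Level of the tested members (1 not shown) in CPM per kb of annotated exon (log axis), ordered by median; points are medians and lines run from the lowest to the highest of 14 libraries. Rplp1 is highest at 1893, and the long upward lines belong to genes such as Rpl35, Rps14 and Rpl31 that were high in a single library.

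The lowest means per kb in the large subunit were those of Rpl15 (16.9) and Rpl21 (22.6), and in the small subunit those of Rps15a (37.7) and Rps13 (84.8). Exon length weighs on these values: Rps15a is counted over 5136 bases of exon in the table, while its GENCODE coding transcript has 640 bases and would give a median of 270 CPM per kb. Sequence shared with transcripts of other genes is the other measured property. Each member's coding transcript was cut into windows of 31 bases, and a median of 64.3% of them also occurred in a transcript of another gene, pseudogenes included. Genes overlapping a member and repeats were not set aside, so a shared window need not be a copy of the mRNA. The share was highest, 99.0%, in Rpl35, where 16 of the 21 other genes were pseudogenes. That transcript has 946 bases, against 452 bases of exon counted. The number of other genes sharing at least 50 windows was largest for Rpl7a (103), Rpl21 (76), Rps2 (71) and Rpl29 (67). Their medians were 66.4, 23.6, 117 and 30.3 CPM per kb. Across the 76 members that are not paralogs, the shared percentage and the log2 level had a Pearson r of -0.12 and a Spearman rho of -0.10, a description across genes that are not independent. Levels of genes with near-identical copies are uncertain, since the counting command in the header names no option that would keep reads with several matches.

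The tissue-restricted paralogs were nearly silent. Rpl10l and Rpl39l, known from testis, had no count in any of the 14 libraries, and Rpl3l, known from muscle, reached 0.233 CPM at most, against medians of 193, 40.2 and 513 CPM for Rpl10, Rpl39 and Rpl3. These 3 paralogs were not tested. Rps27l, a p53-responsive paralog of Rps27, was expressed at 16.1 to 35.6 CPM, against a median of 125 CPM for Rps27. The predicted gene Rpl32l was at 1.3 to 5.1 CPM. Rps4l, left out as a transcribed pseudogene, had a median of 12.1 CPM and was at 0 in S12, against 237 CPM for Rps4x, the X-linked functional gene.

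The members took 1.05% to 3.81% of a library's counts. In normal Lrig1-low cells the share was 1.99% in S01, 1.05% in S05, 2.91% in S09 and 1.41% in S13 (mean 1.84% ± 0.81, SD, n = 4). In normal Lrig1-high cells it was 2.66% in S02, 1.98% in S06, 1.95% in S10 and 3.81% in S14 (2.60% ± 0.87, n = 4). It was 2.05%, 2.42% and 1.77% in the tumor Lrig1-low libraries S03, S07 and S11 (2.08% ± 0.33, n = 3). In the tumor Lrig1-high libraries S04, S08 and S12 it was 2.32%, 1.47% and 1.41% (1.73% ± 0.51, n = 3). The ranges of the 4 groups overlapped, and the largest half-width of a library's 95% Wilson interval, which covers counting error only, was 0.0090 percentage points.

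The high value of S14 came from few genes. There 60.03% of the ribosomal protein counts lay in 5 genes, in S03 28.5% lay in Rpl31 alone and in S09 10.8% in Rpl10 alone. Without the 7 genes whose highest library was at least 3 times the next, a choice made after seeing the data, the share was 1.496% in S14, 1.30% in S03 and 2.31% in S09. On that basis S02 at 2.34% was highest and S05 at 0.920% lowest, both from normal epithelium.

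**Figure D2:**
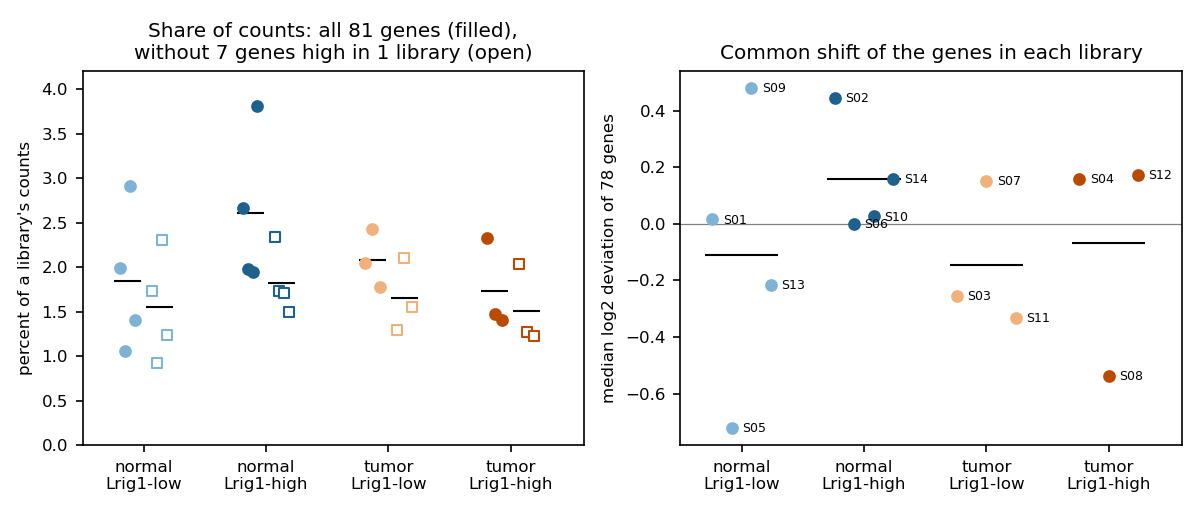
Left, percent of each library's counts in the 81 members (filled circles) and without the 7 genes high in 1 library (open squares); right, the median log2 deviation of the 78 tested members from their own medians, with library names; bars are group means. S14 falls from 3.81% to 1.496% when the 7 genes are taken out, and all 4 groups overlap in both panels.

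Apart from these genes and from the library S12 the family moved as a block from library to library. For each gene the deviation of log2(CPM + 1) from its median over 14 libraries was taken, and the median deviation over the 78 tested members is called the common shift of a library. All 78 members lay below their own medians in S05, where the shift was -0.72, and all 78 lay above them in S02, at 0.44. S09 had the highest shift, 0.48, and S08 the second lowest, -0.54. From the lowest to the highest library this was a 2.30-fold range. The median SD of a member across libraries was 0.42 on the log2 scale, and 0.22 once each library's shift was taken off. The large and the small subunit shifted by -0.71 and -0.78 in S05, by 0.45 and 0.52 in S09 and by -0.48 and -0.61 in S08. In S12 they shifted by 0.01 and 0.17 and the P stalk by 0.51, with 32 members below and 46 above their medians.

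The shift did not order the libraries by group. In normal Lrig1-low cells it was 0.02 in S01, -0.72 in S05, 0.48 in S09 and -0.22 in S13. Normal Lrig1-high cells had 0.44 in S02, -0.00 in S06, 0.03 in S10 and 0.16 in S14. The tumor Lrig1-low libraries S03, S07 and S11 had -0.25, 0.15 and -0.33, and the tumor Lrig1-high libraries S04, S08 and S12 had 0.16, -0.54 and 0.17. The mean log2(CPM + 1) of 8 crypt stem cell genes, such as Lgr5 and Olfm4, was 4.53 in S05 and 5.59 in S08, and 6.84 in S09 and 7.90 in S02. The crypt gene mean was highest, 7.99, in S06 and S07, whose shifts were -0.00 and 0.15, and the part of cell makeup in the shift was not tested. In these bulk samples fewer cells of a type and less RNA per cell cannot be told apart.

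**Figure D3:**
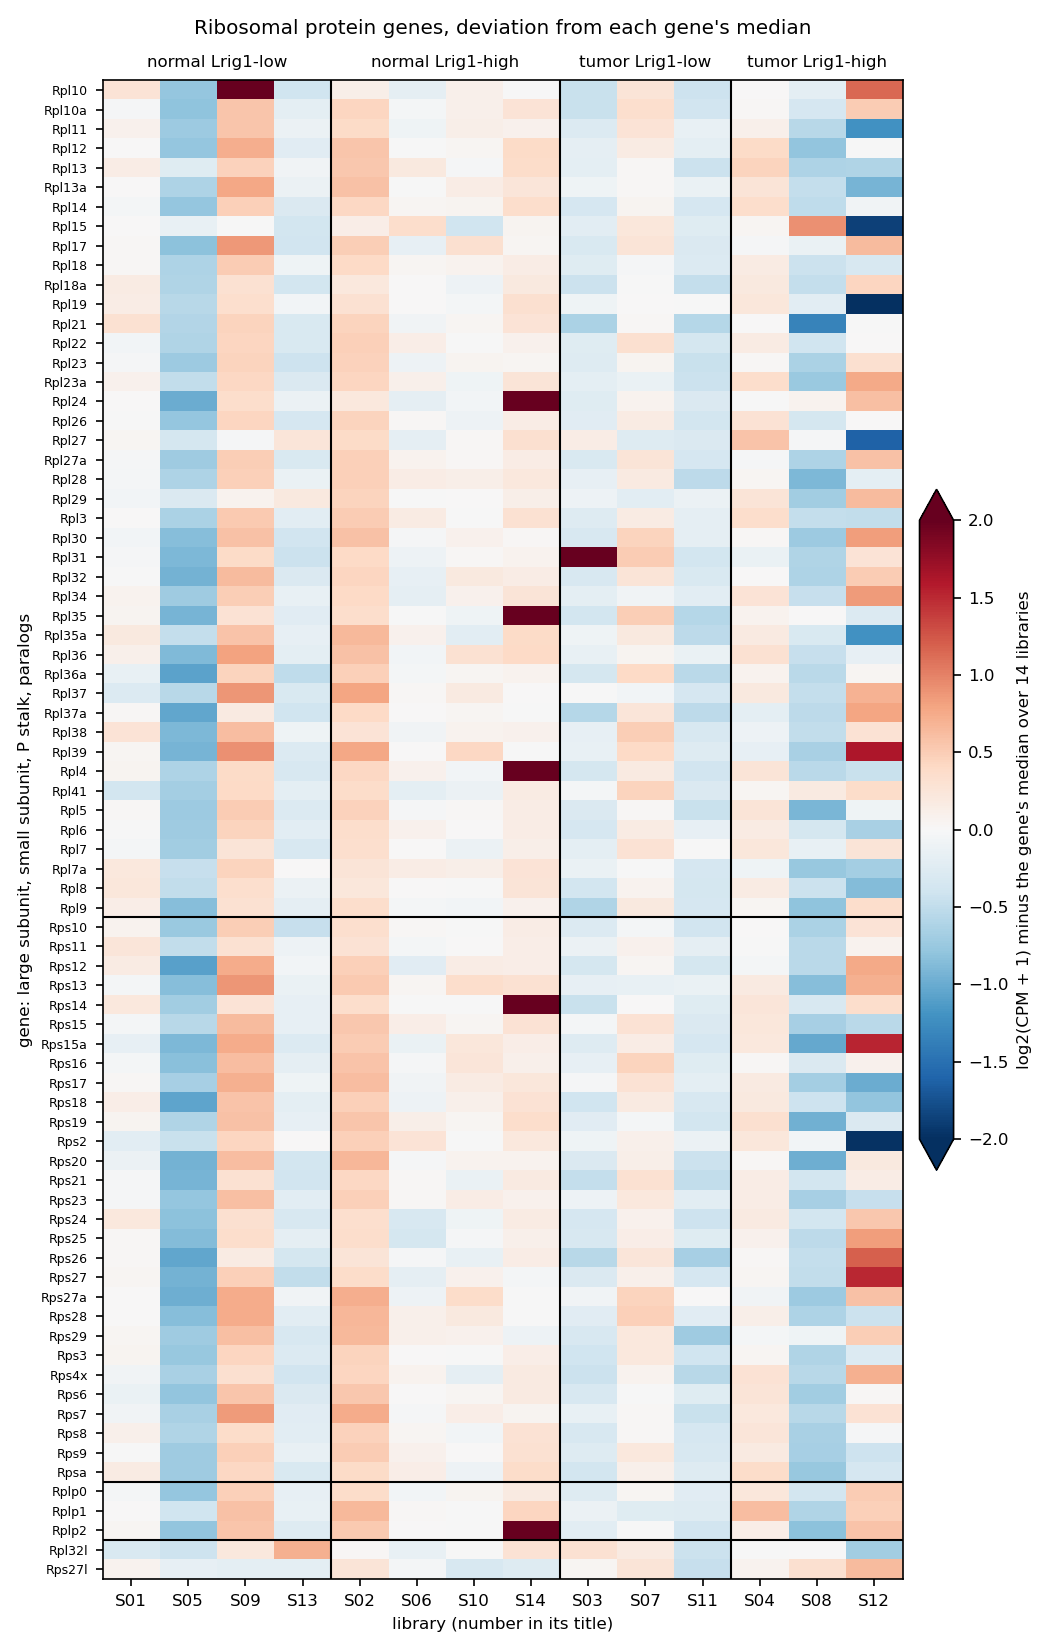
Each row is 1 tested member (1 is not shown) and each column 1 library; colour is log2(CPM + 1) minus the gene's median over the 14 libraries, limited to the range from -2 to 2. The columns S05 and S08 are mostly blue and S09 and S02 mostly red, single dark red cells mark Rpl10 in S09, Rpl31 in S03 and 5 genes in S14, and S12 is mottled.

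Single genes stood far above the rest of the family in single libraries. Rpl35, a protein at the exit of the nascent chain tunnel, was at 8362 CPM in the normal Lrig1-high library S14, and at 66.8 to 181 CPM in the other 13 libraries. Its S14 value rests on 115517 counts and was 65.1 times the median of the others. Rpl24, at the interface of the subunits, was at 2354 CPM in S14 against 41.5 to 127 CPM elsewhere. Rps14, a protein of the small subunit platform, was at 6163 CPM in S14 against 155 to 324 CPM elsewhere. Rpl24 was 18.5 times and Rps14 19.01 times its next highest library.

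A further pair of genes of S14 stood out from a higher base. Rplp2 was at 4279 CPM there against 274 to 717 CPM in the other libraries, and its P stalk partner Rplp1 was at 1193 CPM in S14, within its range of 584 to 1386 CPM. Rpl4, a large protein that lines the exit tunnel, was at 7515 CPM in S14 against 692 to 1406 CPM. The other members kept to the common shift in S14, where the median absolute deviation from it was 0.10 on the log2 scale.

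In other libraries 1 gene each was involved. Rpl31, which lies beside the tunnel exit, was at 6075 CPM in the tumor Lrig1-low library S03 and at 84.4 to 225 CPM in the other 13. Its pseudogenes Rpl31-ps9 and Rpl31-ps20, at most 0.243 CPM in the other libraries, were at 6.7 and 3.2 CPM in S03. Rpl10, which joins the large subunit late in assembly, was at 3117 CPM in the normal Lrig1-low library S09 and at 112 to 430 CPM elsewhere.

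**Figure D4:**
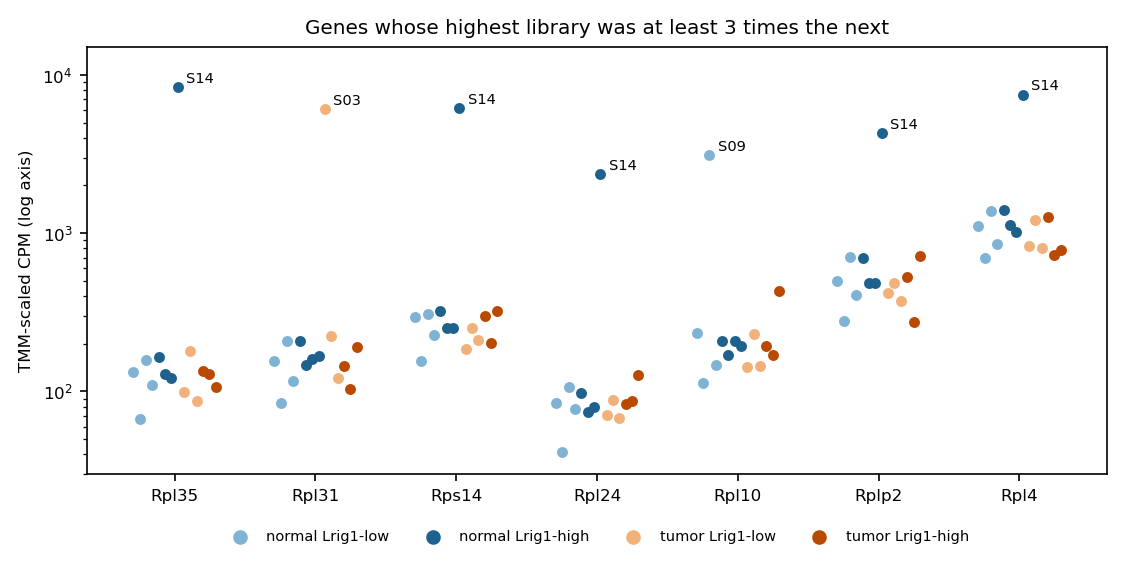
CPM of the 7 members whose highest library was at least 3 times the next (log axis), 1 point per library coloured by group. The highest point of Rpl35, Rps14, Rpl24, Rplp2 and Rpl4 is S14, that of Rpl31 is S03 and that of Rpl10 is S09.

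Genes of this kind were also found outside the family. Among 8433 genes with a median of at least 10 CPM, the highest library was at least 3 times the next in 204 (2.42%), and in 7 of the 77 members above that level (9.09%). At 10 times the next the counts were 74 of 8433 (0.878%) and 4 of 77 members (5.19%). Among all genes the highest library was most often S12 (77 genes), S14 (56) and S13 (26), followed by S03 and S11 with 14 each. No member was among the genes of S12, S13 or S11 at this ratio.

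S12, the tumor Lrig1-high library with the most mitochondrial ribosomal RNA, differed in another way. Its members scattered around the common shift with a median absolute deviation of 0.46, against 0.05 to 0.15 in the other libraries, and the same measure over all genes was 0.72 against 0.15 to 0.31. After the shift was taken off, 4 members were more than 1 above it on the log2 scale and 9 more than 1 below it. Rpl19 was at 43.1 CPM in S12 against 175 to 326 CPM elsewhere, on 399 counts. Rps2 was at 28.9 against 85.6 to 162 CPM and Rpl27 at 12.1 against 30.3 to 58.5 CPM. On the other side Rpl39 was at 126 CPM against 20.8 to 76.9 CPM, and Rps15a, Rps27 and Rps26 were at 494, 358 and 378 CPM against highest values of 290, 174 and 198 CPM elsewhere. Rpl15 was at 7.9 CPM in S12 and at 59.9 CPM in S08, against 23.5 to 40.1 CPM in the other 12. The part of RNA quality in these values was not tested.

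The comparisons below share groups, so each group serves in 2 of the 4, and their values are not independent. The first asked how tumor cells differed from normal cells in the Lrig1-low fraction. None of the 78 members passed an adjusted p of 0.05 in edgeR's quasi-likelihood test with Benjamini-Hochberg adjustment over 13883 genes, where 0.31% of all genes were called higher and 0.0216% lower. An unadjusted edgeR p under 0.05 was found for 2 of 78 members and 1949 of 13883 genes. DESeq2 called 0 members, where it called 545 of all genes higher and 161 lower. The median log2 fold change was -0.10, with 14 members positive, against 0.02 over all genes. With total counts as library sizes the median became 0.11 with 64 members positive, while that of all genes became 0.24. Leaving out 1 library moved it in both directions: it was -0.31 with 5 positive without S05, -0.26 with 2 positive without S07 and -0.19 with 7 positive without S13, but 0.12 with 61 positive without S09 and -0.01 with 37 positive without S11. Leaving out S07, S08, S09 and S10 gave -0.02 with 31 positive. No member had groups without overlap, against 9.95% of all genes higher and 8.39% lower.

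Rpl31 had the smallest adjusted p. Rpl31, described above, was at 155, 84.4, 207 and 117 CPM in the normal libraries and at 6075, 225 and 122 CPM in the tumor libraries S03, S07 and S11. Only S03 stands apart, and the groups overlap. The log2 fold change was 3.93 ± 0.97 (SE, adjusted p = 0.0783 in edgeR), and without S03 it was 0.27. Limma-voom with sample weights gave 4.03 (adjusted p = 0.0067), and edgeR without S07 gave 4.46 (adjusted p = 0.0365), so that both called the gene. Limma-voom called 7.64% of all genes higher in this comparison and 1 of the 78 members. Rpl10 was at 234, 112, 3117 and 146 CPM in the normal libraries and at 142, 231 and 145 CPM in the tumor libraries. Its log2 fold change of -2.39 ± 0.98 (edgeR adjusted p = 0.288) became 0.05 without S09. Rpl41, the smallest ribosomal protein, and Rpl21 had log2 fold changes of 0.23 ± 0.26 and -0.40 ± 0.35 (edgeR adjusted p = 0.842 and 0.742).

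In the Lrig1-high fraction the members were on balance lower in tumor cells, without a call. The median log2 fold change was -0.25 with 20 of 78 positive, against -0.04 over all genes, and medians were -0.24 for the large and -0.28 for the small subunit. EdgeR called 0 members and 0% of all genes. An unadjusted edgeR p under 0.05 was found for 6 of 78 members and 1559 of 13883 genes. It was found for 1 of the 71 tested members other than the 7 genes high in 1 library. DESeq2 and limma-voom called 0 members, where DESeq2 called 74 of all genes higher and 40 lower and limma-voom 0. The median was -0.07 without S08, -0.14 without S02, -0.37 without S12 and -0.09 without S07 to S10. With total counts as library sizes 11 of 78 were positive (median -0.30), beside -0.05 for all genes.

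Rpl7a and Rpl28 were the members whose tumor libraries all lay below the normal libraries, where 5.02% of all genes did so and 3.37% did the reverse. Rpl7a, a large subunit protein, was at 68.5, 63.6, 62.4 and 69.2 CPM in the normal libraries and at 54.1, 33.5 and 35.6 CPM in the tumor libraries S04, S08 and S12. The log2 fold change was -0.68 ± 0.23 (SE), with an edgeR adjusted p of 0.355, and it passed in edgeR without S04 (-0.94, adjusted p = 0.0445), which leaves S08 and S12 as the tumor libraries. Rpl7a also shares most of its sequence with pseudogenes, as given above. Rpl28 was at 111, 88.2, 86.6 and 92.4 CPM in normal and at 81.7, 42.2 and 69.5 CPM in tumor libraries (log2 fold change -0.55 ± 0.28, edgeR adjusted p = 0.465). With 2 of 78 members, the share without overlap was below that of all genes.

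Rpl35 had the lowest fold change of this comparison, -4.15 ± 1.38 (edgeR adjusted p = 0.355). It was at 165, 128, 121 and 8362 CPM in the normal libraries and at 134, 129 and 107 CPM in the tumor libraries, and without S14 the log2 fold change was -0.19. Rps27 and Rps27l had the smallest p among positive changes. Rps27 had 161, 110, 133 and 122 CPM in normal libraries and 128, 88.5 and 358 CPM in tumor libraries (0.55 ± 0.42, edgeR adjusted p = 0.610), and the change was -0.30 without S12. Rps27l had 26.9, 21.8, 17.7 and 18.5 CPM against 23.6, 28.4 and 35.6 CPM (0.46 ± 0.25, edgeR adjusted p = 0.503), with overlapping groups.

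**Figure D5:**
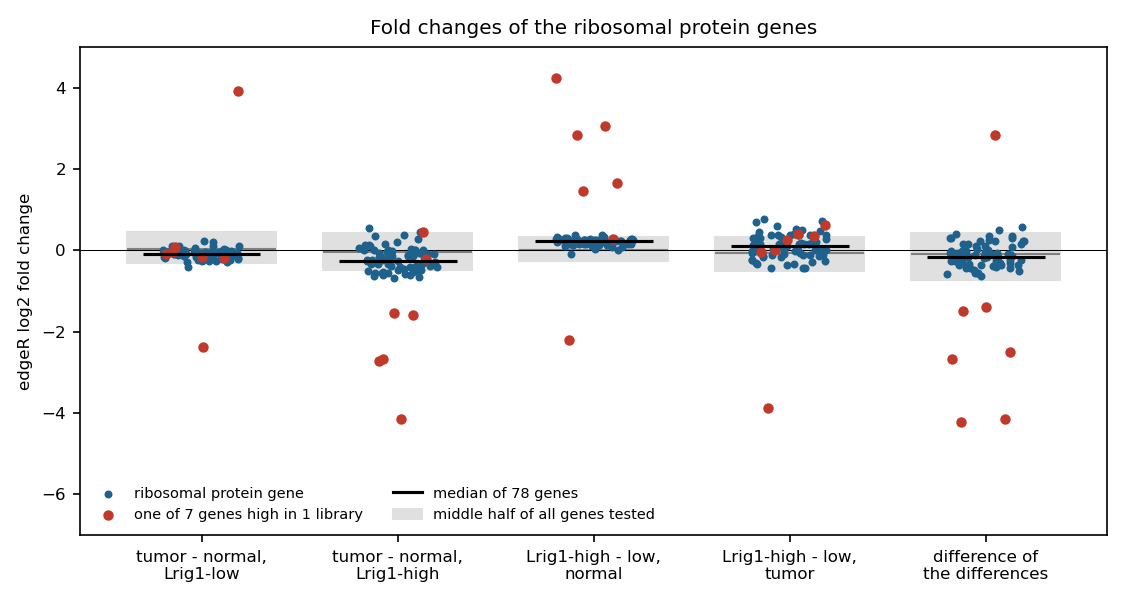
EdgeR log2 fold changes of the 78 tested members in the 4 comparisons and for the difference of the differences; red points are the 7 genes high in 1 library, black bars the members' medians, grey lines the medians of all genes tested and grey boxes their range from the lower to the upper quartile. The members' medians run from -0.25 to 0.23, and the points far from 0 are red.

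Between the Lrig1 fractions of normal epithelium nearly all members had a small positive difference. With Lrig1-low as the base, the log2 fold change was positive for 76 of 78, with a median of 0.23 against 0.01 over all genes, and all 30 small subunit members were positive. EdgeR called 0 of them and 0% of all genes. An unadjusted edgeR p under 0.05 was found for 6 of 78 members and 499 of 13883 genes. It was found for 0 of the 71 tested members other than the 7 genes high in 1 library. DESeq2 called 0 members, where it called 1 of all genes higher and 0 lower. Since the members share each library's shift, their directions are not independent of each other. The median was 0.07 without S05, 0.12 without S02, 0.51 without S09 and 0.55 without S07 to S10. No member had groups without overlap, against 1.63% of all genes higher and 1.21% lower.

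Limma-voom with sample weights called 15 of the 78 members higher here (19.2%), where it called 14.8% of all genes higher and 15.2% lower. Among these were Rps4x (0.52 ± 0.16, adjusted p = 0.0248) and Rpl3 (0.51 ± 0.16, adjusted p = 0.028), a core protein of the peptidyl transferase region. Rps4x was at 227, 150, 295 and 182 CPM in Lrig1-low and at 319, 249, 209 and 269 CPM in Lrig1-high libraries. Rpl3 was at 514, 332, 738 and 444 CPM in Lrig1-low and at 733, 576, 512 and 634 CPM in Lrig1-high libraries. The groups overlap for both genes, with S09 and S05 at the ends of the Lrig1-low group.

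The named genes of this comparison were set by single libraries. Rpl35 differed by 4.24 ± 1.23 and Rpl24 by 3.07 ± 0.98 (edgeR adjusted p = 1 for both), and without S14 by 0.26 and 0.12. Rpl10 differed by -2.21 ± 0.87 (edgeR adjusted p = 1), and by 0.27 without S09. The low gene Rpl32l, at 1.8 to 5.1 CPM in Lrig1-low and 2.4 to 3.5 CPM in Lrig1-high libraries, differed by -0.10 ± 0.53.

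In tumors the members showed no common direction between the Lrig1 fractions. The median log2 fold change was 0.11 with 49 of 78 positive, against -0.06 over all genes. With total counts as library sizes it was -0.15 with 22 positive, beside -0.24 for all genes. Leaving out 1 tumor library gave -0.07 (S04), 0.03 (S11), 0.05 (S12), 0.06 (S03), 0.29 (S07) and 0.31 (S08). Without S07 to S10 it was 0.52 with 67 positive, which leaves 2 tumor libraries a group. The Lrig1-high libraries left were S04 and S12, and S12 had the most mitochondrial ribosomal RNA and 72.5 CPM of Lrig1. EdgeR called 0 members and 0% of all genes. An unadjusted edgeR p under 0.05 was found for 1 of 78 members and 1042 of 13883 genes. DESeq2 and limma-voom called 0 members, where DESeq2 called 6 of all genes higher and 16 lower and limma-voom 0. No member had groups without overlap, against 2.22% of all genes higher and 5.24% lower.

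Rpl31 differed most, by -3.87 ± 1.09 (edgeR adjusted p = 0.655), and by -0.23 without S03. Rps27 and Rps26, a protein at the mRNA exit, differed by 0.78 ± 0.45 and 0.70 ± 0.41 (edgeR adjusted p = 0.700 for both), and without S12 by -0.01 and 0.10. Rpl7a differed by -0.33 ± 0.24 (edgeR adjusted p = 0.755). The difference of the tumor effect between the 2 fractions had a median of -0.15 with 22 of 78 positive, against -0.09 over all genes. This median turned sign without S05 (0.01, 40 positive) and without S08 (0.02, 42 positive). It was -0.02 without S07, -0.07 without S02, -0.09 without S13, -0.34 without S04 and -0.36 without S09. Leaving out S07 to S10 together gave -0.10 with 33 positive. With total counts as library sizes it was -0.41 with 5 positive, beside -0.31 for all genes, and with S15 it was -0.03. EdgeR called 0 members and 0% of all genes there. An unadjusted edgeR p under 0.05 was found for 3 of 78 members and 999 of 13883 genes. DESeq2 and limma-voom called 0 members, where DESeq2 called 1 of all genes higher and 4 lower and limma-voom 0. The extremes of this difference were Rpl35 (-4.23 ± 1.72), Rpl31 (-4.15 ± 1.34) and Rpl10 (2.83 ± 1.30), each at an edgeR adjusted p of 0.685. Rps27l differed by 0.36 ± 0.36.

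The stalk and laminin receptor genes had no call in any comparison. In the comparison of Lrig1 fractions in normal epithelium Rplp0 differed by 0.21 ± 0.28, Rplp1 by 0.24 ± 0.30 and Rpsa by 0.25 ± 0.31 on the log2 scale, with edgeR adjusted p = 1 for each. Between tumor and normal Lrig1-high cells they differed by 0.02 ± 0.30, -0.04 ± 0.33 and -0.38 ± 0.33 (edgeR adjusted p = 0.983, 0.964 and 0.650), beside a median of -0.25 over the members. Between the fractions in tumors the stalk genes had a median of 0.31, beside 0.11 over the members. Rplp2 differed by 1.65 ± 0.65 in the former and -1.55 ± 0.71 in the latter, both with S14 among the normal Lrig1-high libraries and beside members' medians of 0.23 and -0.25.

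Genes outside the symbol rule differed in part from the members' medians. Fau, which encodes Rps30 fused to a ubiquitin-like protein, was at 240, 156, 265 and 204 CPM in normal Lrig1-low and at 182, 151 and 165 CPM in tumor Lrig1-low libraries (log2 fold change -0.38 ± 0.22, edgeR adjusted p = 0.515). In Lrig1-high cells it had 228, 169, 252 and 190 CPM in normal and 181, 129 and 144 CPM in tumor libraries (-0.47 ± 0.22, edgeR adjusted p = 0.454). Between the fractions of normal epithelium Fau differed by -0.05 ± 0.20, where 76 of the 78 members were positive. Rack1, a scaffold on the small subunit, ranged from 502 to 1197 CPM. It differed by 0.03 ± 0.32 between tumor and normal Lrig1-high cells and by 0.43 ± 0.34 between the fractions in tumors, beside members' medians of -0.25 and 0.11. Rps3a1 ranged from 126 CPM in S05 to 307 CPM in S02, and S05 was also the library with the lowest common shift.

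Lists related to the members were not called either. Of 21 other TOP mRNAs, chiefly translation factors, all 21 were positive between Lrig1-high and Lrig1-low normal cells (median 0.25), with Eef2 at 0.07 ± 0.27 and Eef1a1 at 0.18 ± 0.28. Their medians were -0.05 and -0.16 between tumor and normal cells of the Lrig1-low and the Lrig1-high fraction, and 0.02 between the fractions in tumors. The medians of 24 ribosome biogenesis genes were 0.28 and -0.41 between tumor and normal cells of the Lrig1-low and Lrig1-high fraction, and 0.42 and -0.27 between Lrig1-high and Lrig1-low cells of normal epithelium and tumors. Nucleolin (Ncl), the list's most abundant gene, had 0.37 ± 0.53, -1.04 ± 0.55, 0.94 ± 0.50 and -0.47 ± 0.57 in the same order. The 78 mitochondrial ribosomal protein genes, whose products serve the separate ribosomes of mitochondria, had medians of -0.19, -0.26, 0.03 and -0.10. No gene of these lists passed edgeR's adjusted threshold in any of the 4 comparisons.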

How the data were processed

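The authors deposited a table of unnormalized counts per gene for 15 libraries. Per the file headers it was made with featureCounts 1.5.3, an mm10 RefSeq exon annotation and strand option 2. The submitters' processing notes name Trimmomatic, HISAT2 and Subread. The kit was a stranded one for low inputs of total RNA, per the labels' protocols. Gene identifiers were matched to symbols through RefSeq (25275) and GENCODE M21 (18), and 1886 had none.

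The members and lists were chosen with earlier results of these data known. EdgeR 4.0.16 under R 4.3.3 was used with TMM scaling, filterByExpr (13883 genes tested), 1 coefficient per group over 14 libraries, and the quasi-likelihood F test. P-values were adjusted by Benjamini-Hochberg across the whole table, and a call means an adjusted p under 0.05. A standard error is the log2 fold change divided by the square root of F. The script was tested on simulated data. The library S15 fell under a minimum of 1000 counts. DESeq2 1.42.0, limma-voom (limma 3.58.1), other scalings and filters, and fits without single libraries were alternatives. DESeq2 was run with its default outlier filter, and a gene that it leaves without a p-value counts as not called. Whether this held for members with 1 extreme library is not given here.

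Named genes were, per comparison and direction, up to 5 members past the threshold or otherwise the 2 with the smallest p; the 8 members farthest from the common shift in 1 library; the 3 highest and 2 lowest means per kb of each subunit; paralogs beside their partners; the P stalk and Rpsa; and Fau and Rack1. A few genes are not reported here. Rpl28, Rps4x, Rpl3 as a voom call, Rps3a1, Rpl29 and the S12 genes beyond the 8 were chosen after their values were seen, as were the colon and small intestine markers.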

Additional observations from a re-analysis of the deposited data

Results flagged for a closer look

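In 7 of 56 group checks the highest or lowest library was farther from its nearest neighbour than Dixon's 95% critical value for 4 libraries allows. Chance flags about 1 in 20 groups, but that rate cannot be set against this count, since the genes checked include those named for standing out in 1 library. In the normal Lrig1-high group this was S14 for Rpl35 (8362 CPM), Rpl4 (7515 CPM), Rps14 (6163 CPM), Rplp2 (4279 CPM) and Rpl24 (2354 CPM). In the normal Lrig1-low group it was S09 for Rpl10 (3117 CPM) and S01 for Rps27l, at 23.6 CPM against 19.4 to 20.05 CPM. Rpl31 in S03 could not be checked, since its group has 3 libraries.

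The library S15, left out of all comparisons, held 357 counts, and 11 of these (3.08%, 95% Wilson interval 1.73% to 5.43%) were in Rps14. The interval covers counting error only, and reads of a library this small may be PCR copies of few molecules. Rpl35 had 2 counts and Rps3 1 there, and no other member had any. Of the 56 genes that were at least 3 times higher in S14 than in any other library, 11 had a count in S15, with 108 counts (30.3%) between them. Of all 27179 genes, 47 had a count there. The share of counts that these 56 genes took in the other libraries is not given here.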

How the results depend on the processing

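Across the alternatives the counts of called members stayed at 0 in edgeR and DESeq2, except that limma-voom with sample weights called 1 member higher between tumor and normal Lrig1-low cells and 15 higher between Lrig1-high and Lrig1-low normal cells. Leaving out each library gave 0 to 1 members higher in tumor Lrig1-low cells (1 without S07) and 0 to 1 lower in tumor Lrig1-high cells (1 without S04). The median log2 fold change between the fractions in tumors was 0.52 without S07, S08, S09 and S10. The mean share of counts was 2.49% in tumor Lrig1-low and 2.35% in tumor Lrig1-high libraries without the mitochondrial ribosomal RNA counts, and 1.65% in tumor Lrig1-low libraries without the 7 genes high in 1 library. Single genes changed sign in 8 cases. Leaving out each library in turn, the log2 fold change between tumor and normal Lrig1-low cells ran from -0.0067 (without S07) to 0.45 (without S09) for Rpl41 and from -2.80 to 0.0502 (without S09) for Rpl10. Between tumor and normal Lrig1-high cells Rps27 ran from -0.30 (without S12) to 0.89, and limma-voom gave -0.14. Between the fractions of normal epithelium Rpl10 ran from -2.58 to 0.27 (without S09), with 0.23 without S07 to S10, and Rpl32l from -0.27 to 0.28 (without S13). Between the fractions in tumors Rps27 ran from -0.0081 (without S12) to 1.12. The cause of these changes was not tested. No paired analysis by animal was possible because no label ties a library to an animal. A block for each run of 4 adjoining library numbers called 0 members. With it the members' median was -0.03 (27 positive) between tumor and normal Lrig1-low cells and -0.30 (9 positive) in Lrig1-high cells. Between the fractions it was 0.26 (76 positive) in normal epithelium and 0.005 (39 positive) in tumors. With S15 included the median between tumor and normal Lrig1-low cells was -0.23. Leaving out 1 tumor library leaves 2 in its group.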
